A study of Arabidopsis thaliana with 6 samples.

Results

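The genes described here encode 6 small heat shock proteins of Arabidopsis thaliana that lie outside cytosolic class I and the organelle forms. They are the class II genes HSP17.6-CII (AT5G12020) and HSP17.7-CII (AT5G12030), the class III gene HSP17.4-CIII (AT1G54050), and the divergent genes HSP15.4 (AT4G21870), HSP18.5 (AT2G19310) and HSP21.7 (AT5G54660). They were chosen by these locus identifiers, through the gene identifier of each probe set, and make up 6 of the 20310 genes measured. Each of the 6 genes had a single probe set that named no other gene, so every value below comes from 1 probe set per gene. RefSeq lists AT5G12020 under the symbol HSP17.6II and AT5G12030 under the symbol HSP17.6A.

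RNA was measured on 6 Affymetrix expression arrays, with 1 sample per array, in whole seedlings of the ecotype Col-0. Heat samples (3) were exposed to 37 °C in the light for 30 min, and control samples (3) stayed in the light without heat. Seeds of both groups were kept in the dark at 4 °C for 72 h and seedlings then grew on solid medium at 23 °C with 16 h of light and 8 h of darkness. The labelled age differs for every array. It is 10, 11 and 12 days for control replicates 1, 2 and 3. For heat replicates 1, 2 and 3 it is 13, 14 and 15 days. Every heat array is thus labelled older than every control array, and labelled age runs with the groups. The series text, in contrast, gives 1 age of 10 days for all. Nothing in the labels says that the samples of a group were grown separately, so the p-values here reflect a spread between samples that may be technical.

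Small heat shock proteins share a conserved alpha-crystallin domain and assemble into oligomers. They bind unfolding proteins without using ATP and keep them in a state from which HSP70 chaperones and the disaggregase HSP101 can refold them. In plants they form many classes, sorted by sequence and by compartment, and most of their genes are switched on by heat shock factors within minutes of a heat stress. Class II proteins act in the cytosol, and the class III protein is found in the nucleus and the cytosol. The divergent proteins carry the same domain but fall outside the larger classes.

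All levels are log2 intensities after the RMA normalization of the authors, in which all arrays share nearly the same distribution. Array medians lay between 4.40 and 4.43 in heat and between 4.50 and 4.54 in control samples, array minima between 2.53 and 2.66, and array maxima between 14.00 and 14.16. The level of 1 probe set cannot be set against that of another, because probes bind with different strength. Green-tissue probe sets, which each cover several genes, lay near the array maxima in all samples, with means of 13.97 in heat and 14.07 in control seedlings for the set that includes RBCS1A. The root gene PYK10 averaged 9.93 ± 0.25 in heat and 11.38 ± 0.04 in control seedlings (SD, n = 3 each), while the root hair genes COBL9 and EXP7 lay at 3.57 to 4.29 on all arrays, below the array medians. PYK10 was thus lower after heat, by -1.45 (limma, adjusted p = 0.000589), whereas COBL9 and EXP7 differed by 0.16 and 0.17 and did not pass. Whether the share of root RNA differed between the groups was not tested. Over the 22746 probe sets tested, 1778 rose and 2614 fell after heat at an adjusted p under 0.05. The median change of all probe sets was 0.02 on the log2 scale. It was 0.12 with 3054 rises and 2126 falls after centring each array on its median, and -0.43 with 662 rises and 8360 falls after scaling to the Bacillus control RNAs, so changes are stated relative to the bulk of transcripts on the array.

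The comparison of heat with control seedlings asked how the transcriptome responds to heat stress in light. Of the 6 genes, 4 rose, 0 fell and 2 did not pass the test. Both class II genes rose by more than 9 on the log2 scale, the class III gene by 7.24 and the divergent gene HSP18.5 by 4.99. HSP15.4 and HSP21.7 differed by -0.41 and 0.16, neither past the threshold. Among all probe sets tested, 7.82% rose, 11.5% fell and 19.3% changed in either direction by the same rule, so 4 rises in 6 genes is well above that share. The 6 genes are heat shock protein genes, chosen with earlier results of these data known. The excess over that share is therefore a description and not a test. In the 4 genes that rose, all heat arrays lay above all control arrays, as they did for 18.8% of all probe sets (38.8% had groups that did not overlap in either direction). The median change of the 6 genes was 6.12, beside 0.02 over all probe sets. Since whole seedlings were measured, a change in the RNA per cell and a change in the number of cells that hold it cannot be told apart.

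**Figure D1:**
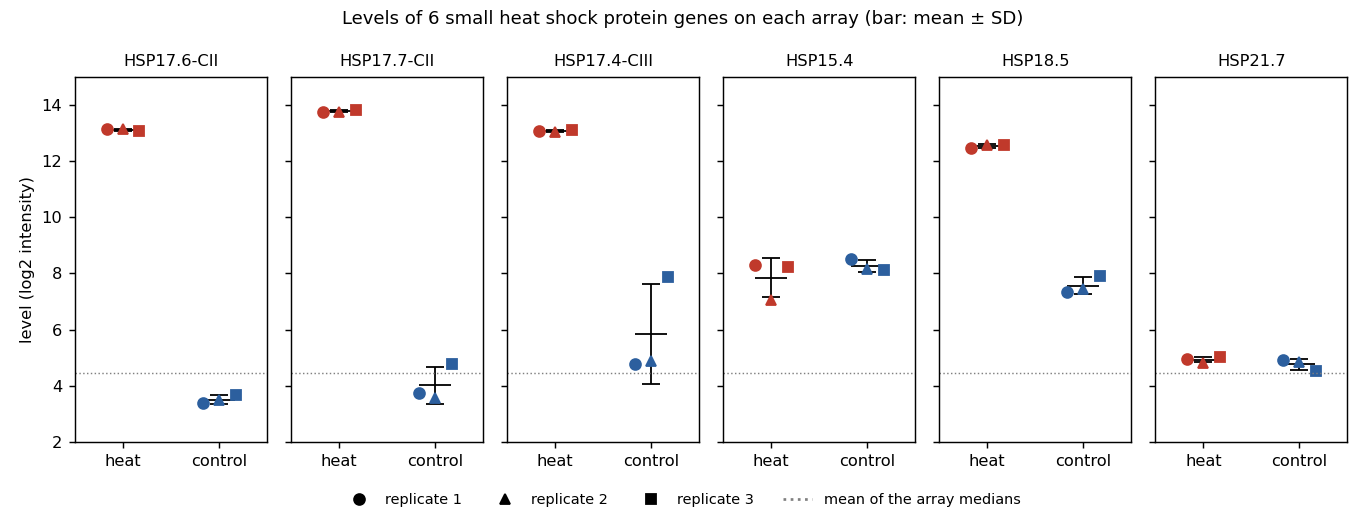
Level of each of the 6 genes on each array (y axis, log2 intensity), with heat left of control in each panel, symbols for replicates and bars for the mean ± SD of 3 arrays. HSP17.6-CII, HSP17.7-CII, HSP17.4-CIII and HSP18.5 have tight heat values between 12.46 and 13.83 that lie above all their control values, while the groups overlap for HSP15.4 and HSP21.7.

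HSP17.6-CII is a class II protein that has been described as a chaperone of catalase, the enzyme that removes hydrogen peroxide in peroxisomes. Its level was 13.14, 13.14 and 13.09 in heat replicates 1, 2 and 3, against 3.37, 3.47 and 3.66 in control replicates 1, 2 and 3. The arrays of each group lay close together and the groups were separated by a gap of 9.43. HSP17.6-CII rose by 9.62 ± 0.10 on the log2 scale (limma SE; 95% confidence interval 9.39 to 9.85; adjusted p = 4.94e-08), which is 787-fold. All its control values lay below the array medians. The share of background in such low levels was not measured, so the fold is not a count of how many more transcripts were present.

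HSP17.7-CII is the class II protein whose gene, under the name HSP17.6A, is known to respond to osmotic stress as well as heat and to be active in developing seeds. Its level was 13.77, 13.75 and 13.83 in heat replicates 1, 2 and 3, against 3.74, 3.55 and 4.78 in control replicates 1, 2 and 3. The heat arrays agree to within 0.08, while control replicate 3 stood 1.13 above the mean of the other control arrays. HSP17.7-CII rose by 9.76 ± 0.30 (95% confidence interval 9.03 to 10.48; adjusted p = 5.38e-06), which is 866-fold. Its values in control replicates 1 and 2 lay below the array medians, so this fold is not a count of transcripts either. Without control replicate 3 the change was 10.14, and with the labelled age as covariate it was 8.93 (adjusted p = 0.00227). Its heat level was within 0.5 of the array maxima, and whether the probes were saturated was not measured.

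HSP17.4-CIII is the single class III gene among the 6. Its level was 13.09, 13.03 and 13.12 in heat replicates 1, 2 and 3, against 4.76, 4.87 and 7.88 in control replicates 1, 2 and 3. The heat arrays were alike, and the control arrays were not: control replicate 3 stood 3.07 above the mean of control replicates 1 and 2. HSP17.4-CIII rose by 7.24 ± 0.80 (95% confidence interval 5.34 to 9.15; adjusted p = 0.00142), which is 151-fold with an interval of 40.5 to 566. The mean of the heat arrays was 8.26 above the mean of control replicates 1 and 2, and 5.20 above control replicate 3. Fitted without control replicate 3, the change was 8.26 (adjusted p = 1.39e-07), which is 2.03 times the fold change over all arrays. Once the labelled age was added as a covariate, the change was 4.88 and was not called (adjusted p = 0.166).

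HSP18.5 is the divergent protein whose gene rose after heat. Its level was 12.46, 12.59 and 12.59 in heat replicates 1, 2 and 3, against 7.33, 7.43 and 7.91 in control replicates 1, 2 and 3. The groups were separated by a gap of 4.55, and control replicate 3 was again the highest control array, by 0.53 over the mean of the other arrays. HSP18.5 rose by 4.99 ± 0.16 (95% confidence interval 4.61 to 5.36; adjusted p = 5.59e-06), which is 31.7-fold.

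HSP15.4 is a divergent protein whose gene did not pass the test. Its level was 8.29, 7.05 and 8.22 in heat replicates 1, 2 and 3, against 8.52, 8.15 and 8.12 in control replicates 1, 2 and 3. The groups overlapped, and heat replicate 2 stood alone, at -1.20 relative to the mean of the other heat arrays. Such a drop of over 2-fold in heat replicate 2 was seen in 0.374% of all probe sets. HSP15.4 differed by -0.41 ± 0.33 (95% confidence interval -1.20 to 0.39; adjusted p = 0.456). Without heat replicate 2 the difference was -0.01 (adjusted p = 0.983). After scaling to the Bacillus control RNAs it was -0.86 and was called as lower (adjusted p = 0.00607).

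HSP21.7 is the third divergent protein. Its level was 4.95, 4.82 and 5.01 in heat replicates 1, 2 and 3, against 4.90, 4.86 and 4.53 in control replicates 1, 2 and 3. All values lay within 0.7 of the array medians and the groups overlapped. HSP21.7 differed by 0.16 ± 0.12 (95% confidence interval -0.13 to 0.46; adjusted p = 0.413), so a rise of the size seen in HSP18.5 lies outside the interval. The difference was -0.29 after scaling to the Bacillus control RNAs (adjusted p = 0.206), a setting that lowered the change of all 6 genes by the same amount, so no direction is given for it.

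The changes of the 6 genes were compared in 15 pairs by the difference between both genes within each array, with a 2-sided exact permutation test over the 6 arrays. This test has 20 arrangements of the arrays and cannot give a p below 0.1, so no pair could pass 0.05. HSP17.7-CII lay 0.63, 0.61 and 0.74 above HSP17.6-CII in heat replicates 1, 2 and 3, against 0.37, 0.08 and 1.12 in control replicates 1, 2 and 3. The control values enclosed the heat values, and the changes of these class II genes differed by 0.14 (SE 0.31; 95% confidence interval -0.73 to 1.0; exact p = 0.7, adjusted over the pairs 0.7). Without control replicate 2 this difference was -0.08, so no order between the class II genes was settled.

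The estimated rise of HSP18.5 was smaller than that of either class II gene. Its control mean was 7.56, against 3.50 for HSP17.6-CII and 4.02 for HSP17.7-CII. With array maxima between 14.00 and 14.16, HSP18.5 could not have risen as far as these genes on this scale. How much of the difference comes from the control levels was not tested. Its change was 4.63 smaller than that of HSP17.6-CII (SE 0.11; 95% confidence interval 4.33 to 4.94) and 4.77 smaller than that of HSP17.7-CII (SE 0.22; interval 4.15 to 5.39). The within-array differences did not overlap between the groups in either pair, and the exact permutation p was the smallest possible, 0.1 (0.115 adjusted over the pairs). HSP17.4-CIII changed by 2.38 less than HSP17.6-CII, with an interval of -0.24 to 5.0. It changed by 2.52 less than HSP17.7-CII, with an interval of 0.71 to 4.32. HSP17.6-CII lay 0.05, 0.11 and -0.03 above HSP17.4-CIII in heat replicates 1, 2 and 3. In control replicates 1, 2 and 3 this difference was -1.39, -1.40 and -4.22. The control mean of HSP17.4-CIII was 5.84, so it too could not have risen as far as the class II genes on this scale. How much of these differences comes from the control levels was not tested either. Against HSP18.5 the change of HSP17.4-CIII was 2.26 larger, with an interval of -0.10 to 4.61. In each of these pairs control replicate 3, the high control array of HSP17.4-CIII, stood apart from the other control arrays. Without it the changes of HSP17.6-CII and HSP17.7-CII exceeded that of HSP17.4-CIII by 1.44 and 1.87, and that of HSP17.4-CIII exceeded that of HSP18.5 by 3.10. HSP15.4 and HSP21.7 differed from each other by 0.57 (interval -0.44 to 1.58; exact permutation p = 0.2, adjusted 0.214). Of the 15 pairs, 13 had within-array differences that did not overlap between the groups, and the 2 that did overlap were the class II pair and the pair of HSP15.4 and HSP21.7. The share of such pairs among other genes was not measured, while 38.8% of single probe sets had groups that did not overlap. The 13 include every pair of a gene that rose with HSP15.4 or HSP21.7, which follows from the changes of the single genes.

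Other genes with an alpha-crystallin domain show where the 6 genes lie in the wider family. All 4 class I genes with a probe set of their own rose, by 8.78 to 9.68, and so did all 6 organelle genes, by 8.11 to 9.36. HSP17.6C-CI, a cytosolic class I protein, rose by 9.68 ± 0.10 (adjusted p = 4.94e-08), and the endoplasmic reticulum protein HSP22.0 rose by 9.07 ± 0.10 (adjusted p = 8.3e-08). The peroxisomal protein HSP15.7 rose by 8.85 ± 0.18 (adjusted p = 8.84e-07). Both class II genes lay at 9.62 and 9.76, HSP17.4-CIII lay at 7.24 with an interval of 5.34 to 9.15 that includes the change of the lowest of these, HSP23.5 at 8.11, HSP18.5 lay at 4.99, and HSP15.4 and HSP21.7 lay near 0. The differences between the 6 genes and these lists were not tested. Of 5 further genes with the domain, 1 rose and 0 fell. That gene was RTM2, which restricts the long-distance movement of a plant virus and rose by 1.11 ± 0.09 (adjusted p = 0.000296), a call that was lost once the labelled age was a covariate. HSP14.7, ACD31.2, AT2G27140 and AT1G20870 differed by -0.04 to 0.17 and did not pass.

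**Figure D2:**
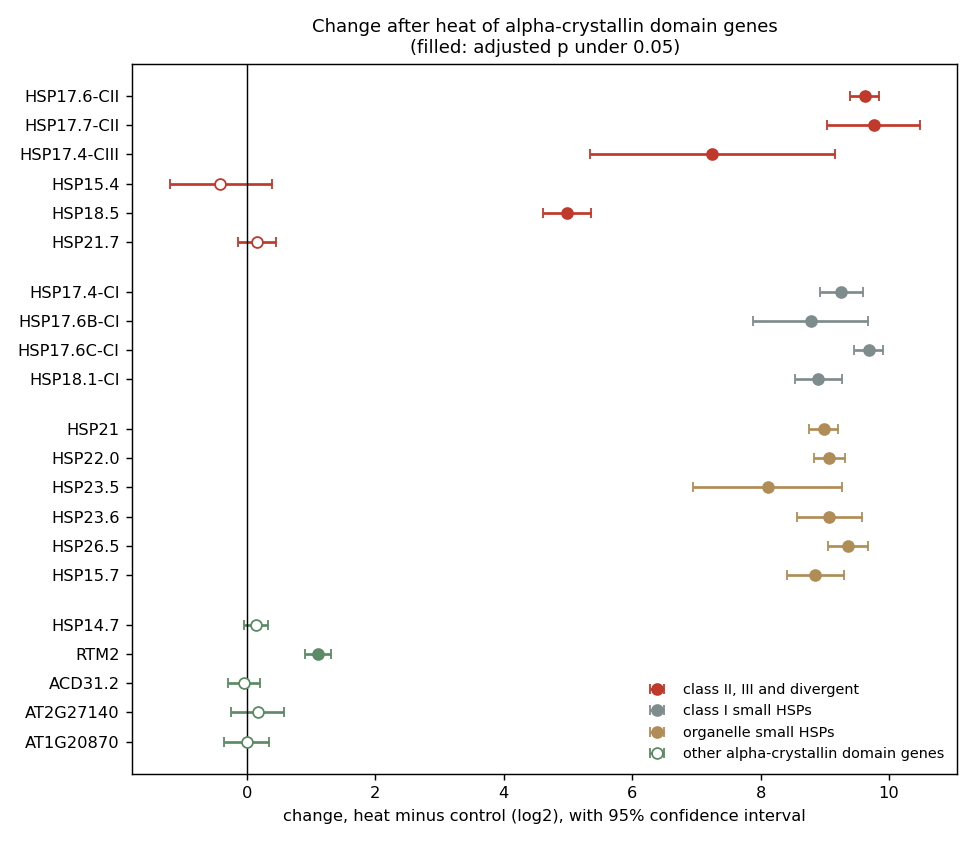
Change after heat (x axis, heat minus control on the log2 scale, with 95% confidence intervals from limma) of the 6 genes and of 15 other genes with an alpha-crystallin domain, filled where the adjusted p was under 0.05. The class II genes lie at 9.62 and 9.76, HSP17.4-CIII at 7.24 with the widest interval, HSP18.5 at 4.99, and HSP15.4 and HSP21.7 have intervals that include 0.

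The chaperones that work with small heat shock proteins and the factors that control their genes changed in the same comparison. Of 8 genes for HSP101, cytosolic HSP70 and their J-domain helpers, 8 rose and 0 fell, with a median change of 3.41. HSP101 rose by 7.78 ± 0.88 (adjusted p = 0.00158) and the J-domain gene J3 by 2.80 ± 0.09 (adjusted p = 4.91e-06), while HSP70-1, which was at 12.39 ± 0.09 without heat, rose by 0.91 ± 0.08 (adjusted p = 0.000638). That was the smallest rise among the listed HSP70 genes: HSP70-2, HSP70-3, HSP70-4 and HSP70-5 rose by 2.99, 3.83, 6.59 and 9.08. Of 10 heat shock factors, 8 rose and 0 fell, with a median change of 2.92. HSFA2, a heat-induced factor that prolongs the response, rose by 7.95 ± 0.93 (adjusted p = 0.00188), and HSFA3 rose by 2.17 ± 0.37 (adjusted p = 0.00852). Against the mean of control replicates 1 and 2 alone, the heat mean was 8.90 higher for HSP101 and 9.15 higher for HSFA2. The A1 factors start the response, and 2 of the 4 passed the test: the rise was 1.24 in HSFA1D (adjusted p = 0.00129) and 0.79 in HSFA1E (adjusted p = 0.0232). HSFA1A and HSFA1B differed by -0.02 and -0.11 and did not pass. With the labelled age as a covariate 3 of the 8 chaperone genes and 2 of the 10 factors were called as higher. Over all 22746 probe sets, 359 rose with that covariate, against 1778 without it, so calls were lost across the array.

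Control replicate 3 was not equally high for all these genes. Relative to the mean of control replicates 1 and 2, it was 3.07 higher for HSP17.4-CIII and 1.13 for HSP17.7-CII, but 0.53 for HSP18.5 and 0.24 for HSP17.6-CII. The same difference was -0.21 for HSP15.4 and -0.35 for HSP21.7. An excess of over 2-fold in this array was present in 2 of the 6 genes, 1 of 4 class I genes, 1 of 6 organelle genes, 2 of 8 chaperone partners and 5 of 10 heat shock factors, against 2.99% of all probe sets. Among these, HSFA2 was 3.60 higher and HSP101 was 3.37 higher. The heat shock factor HSFA7B was 0.15 higher. The part of this array in the results was not tested beyond the values without it: all 4 rises were called without control replicate 3, with changes of 9.70 for HSP17.6-CII, 10.14 for HSP17.7-CII, 8.26 for HSP17.4-CIII and 5.16 for HSP18.5.

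**Figure D3:**
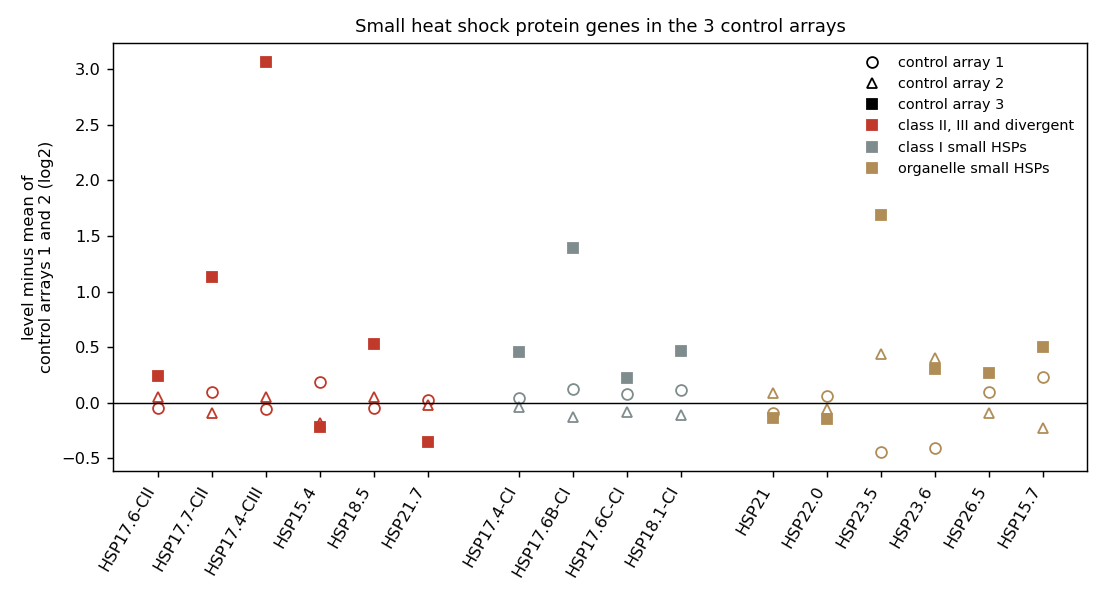
Level in each control array minus the mean of control arrays 1 and 2 (y axis, log2) for the 6 genes and for class I and organelle small heat shock protein genes. Control array 3 (filled squares) lies 3.07 above the other control arrays for HSP17.4-CIII and 1.13 above for HSP17.7-CII, and within 0.6 of them for the other 4 of the 6 genes.

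The 6 arrays also show which genes followed each member most closely. Likeness was measured as the root-mean-square difference between the levels of 2 genes over the 6 arrays, each centred on its own mean, and is a description only. The 6 genes themselves were left out of the ranking. HSP17.6-CII was most like the class I gene HSP17.6C-CI, at 0.09, followed by the organelle gene HSP26.5 at 0.19 and the class I gene HSP17.4-CI at 0.21. Outside the 6 genes, HSP17.7-CII had the same 3 genes nearest, at 0.31 for HSP17.6C-CI, 0.34 for HSP17.4-CI and 0.36 for HSP26.5, and its difference from HSP17.6-CII itself was 0.32. The gene nearest to HSP17.4-CIII was AT2G20560 at 0.11, followed by HSP90.1, a cytosolic heat-induced chaperone, at 0.17 and the transcriptional coactivator MBF1C at 0.24. All 3 shared its high control array: AT2G20560 was at 4.15, 4.04 and 7.21 and HSP90.1 at 4.80, 4.80 and 8.13 in control replicates 1, 2 and 3. Within a difference of 0.5 lay, outside the 6 genes, 10 genes for HSP17.6-CII, 4 for HSP17.7-CII and 9 for HSP17.4-CIII.

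HSP18.5 had 43 genes within 0.5, of which AT4G02550 was nearest at 0.06, followed by the rhomboid-like gene RBL14 at 0.17 and AT1G62730 at 0.19. These genes rose by 5.01, 5.21 and 4.72. HSP15.4 was most like ERD5, which encodes the proline-degrading enzyme proline dehydrogenase, at 0.10, then AT5G44380 at 0.10 and AT2G20670 at 0.14. Within 0.5 of HSP15.4 lay 9925 genes, so likeness at that limit was common. ERD5 was at 7.31, 6.20 and 7.19 in heat replicates 1, 2 and 3, against 7.34, 7.12 and 7.07 in control replicates 1, 2 and 3, so it shared the low value of heat replicate 2. HSP21.7, which hardly varied, lay within 0.5 of 17609 genes, with AT2G36835 nearest at 0.02, AT4G39820 at 0.03 and AT2G30150 at 0.03.

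The class II genes HSP17.6-CII and HSP17.7-CII are direct neighbours in the RefSeq gene order of assembly TAIR10.1. The gene beyond HSP17.6-CII, AT5G12010, differed by -0.31 ± 0.11 (adjusted p = 0.106), short of the threshold. The gene beyond HSP17.7-CII, AT5G12040, rose by 1.4 ± 0.10 (adjusted p = 0.000231). It was at 8.00, 8.23 and 8.11 in heat replicates 1, 2 and 3, against 6.86, 6.64 and 6.63 in control replicates 1, 2 and 3. Next to HSP17.4-CIII, the transcription factor gene ASIL1 rose by 0.86 ± 0.10 (adjusted p = 0.00202) and ESP, a glucosinolate breakdown gene, differed by 0.64 ± 0.28 (adjusted p = 0.171). The measured neighbours of HSP18.5 differed by 0.10 for AT2G19300 and 0.15 for AT2G19320, on which the test made no call, although HSP18.5 between them rose by 4.99. The neighbours of HSP15.4 (-0.03 and 0.03) and of HSP21.7 (-0.47 and -0.15) did not pass either.

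**Figure D4:**
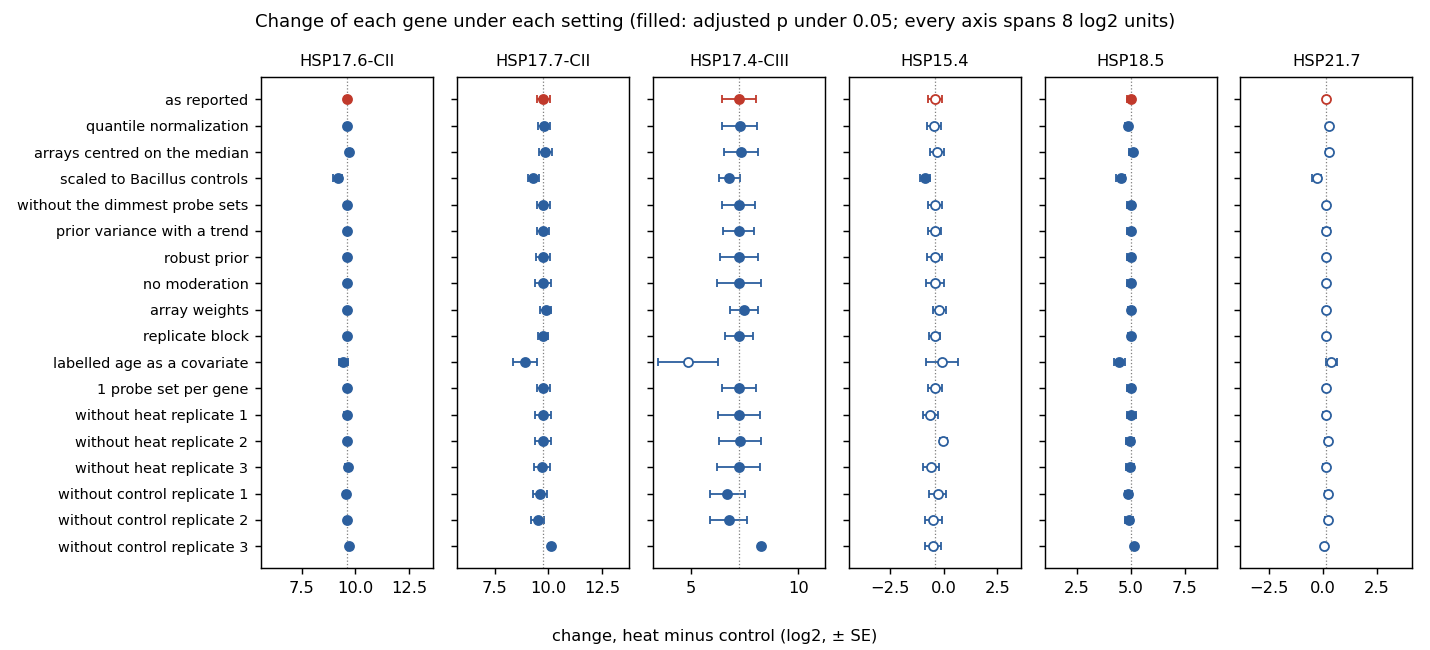
Change of each of the 6 genes (x axis, heat minus control on the log2 scale, ± SE) as reported and under 17 other settings (rows), filled where the adjusted p was under 0.05. HSP17.6-CII, HSP17.7-CII and HSP18.5 stayed called in every row, HSP17.4-CIII was not called with the labelled age as a covariate (4.88), and HSP15.4 was called only after scaling to the Bacillus controls (-0.86).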

How the data were processed

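RNA from 6 seedling samples was measured on 1 array each. The deposited values are log2 levels made with RMA, per the submitters' processing notes. RMA subtracts background, gives arrays the same intensity distribution and summarises probe sets. The version of RMA is not given in the sources used here. Genes of probe sets came from the authors' annotated table. For each replicate number, the linear ratio that the authors computed, control over heat, differed from the array difference by at most 0.0001 (rounded) on the log2 scale. That table's 6 columns of per-sample values were not used.

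The 64 control probe sets were left out and 22746 probe sets were tested in R 4.3.3 with limma 3.58.1 (functions lmFit and eBayes, 2-sided, no covariate), with Benjamini-Hochberg adjustment over all of them and a threshold of 0.05. Of these, 20540 named 1 gene found in RefSeq. Where a gene had several probe sets, the 1 with the highest mean was used. The fit was tested on simulated data. Python 3.11.15 made the tables (numpy 2.4.6, pandas 2.3.3) and the figures (matplotlib 3.10.9).

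The members, lists, tests and settings were chosen with earlier results of these data known. Named genes were the members, the listed genes that were called or belong to a count of 5 or fewer (examples where more passed), the 3 genes most like each member, and the nearest measured neighbours. The planned promoter motif search was not run, because no promoter sequence was available for it. Arrays give no read depth, and their number limits the precision.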

Additional observations from a re-analysis of the deposited data

How the results depend on the processing

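The 17 alternatives changed normalization, scaling, filter, variance model, array weights, block, covariate, probe sets or arrays. HSP17.6-CII (9.17 to 9.72), HSP17.7-CII (8.93 to 10.14) and HSP18.5 (4.47 to 5.16) were called as higher under all of them. HSP17.4-CIII was not called with the labelled age as a covariate (4.88, adjusted p = 0.166), which left 3 of the 6 genes higher. That covariate runs with the groups and widens the error. Scaling to the Bacillus controls lowered all changes: HSP15.4 was called at -0.86, so that 1 of the 6 genes was lower, and HSP21.7 turned to -0.29, not called. With arrays left out in turn, HSP17.4-CIII ran from 6.70 to 8.26, HSP15.4 from -0.62 to -0.01 and HSP21.7 from 0.05 to 0.23, and no call changed. In alternatives chosen after seeing the data, the difference between the changes of HSP17.7-CII and HSP17.6-CII ran from -0.08 without control replicate 2 to 0.44 without control replicate 3. Over all probe sets, 1778 rises and 2614 falls became 359 and 227 with the age covariate, 971 and 1178 without moderation, 662 and 8360 after Bacillus scaling and 3054 and 2126 after median centring. Leaving out heat replicate 1 gave 1035 and 1473, and leaving out heat replicate 3 gave 1049 and 1536. Deviations of samples with equal replicate numbers had correlations of 0.044, 0.192 and -0.077, and those with unequal numbers ran from -0.147 to 0.155. With so few arrays, these values cannot settle whether equal numbers share anything. With the replicate number as a block HSP17.4-CIII was at 7.24 (adjusted p = 0.00491), no call on the 6 genes changed, and 1529 probe sets rose and 2266 fell. Each of the 6 genes had 1 probe set, so a mean over probe sets gave no other value.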

Other observations

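Some relatives of the 6 genes share a probe set and so could not be counted as single genes. The probe set shared by the class I genes HSP17.6A-CI and HSP17.8-CI lay at 13.83, 13.76 and 13.85 in heat replicates 1, 2 and 3, against 3.33, 4.07 and 7.63 in control replicates 1, 2 and 3. Control replicate 3 stood apart here, as it did for HSP17.4-CIII, whereas the class I gene HSP17.6C-CI was at 3.76, 3.60 and 3.90 in the control arrays. The probe set of HSFB1, which names a second gene as well, lay at 11.70, 11.72 and 11.55 in heat replicates 1, 2 and 3, against 5.61, 5.87 and 7.16 in control replicates 1, 2 and 3.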
